A study of Homo sapiens with 6 samples.

Results

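CELF1 RIP-Seq signal was examined in 7 genes of the RAS to ERK pathway, namely NRAS, HRAS, BRAF, MAP2K1, MAP2K2, DUSP6 and SPRY2, out of 20175 protein-coding genes. The genes were chosen by name for their place in the pathway, with earlier results of these data known. Bins of 20 bp were assigned to a gene when their centre lay in one of its exons on the transcript strand. SK-Mel-103 replicate 1 had 385 such bins of 816781, UACC-62 replicate 1 had 421 of 780750 and UACC-62 replicate 3 had 572 of 862731. Of the 694 bins listed in any sample, 254 were listed in all 3.

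RAS proteins are membrane-bound GTPases that recruit RAF kinases when loaded with GTP. RAF phosphorylates the MEK kinases, MEK phosphorylates ERK, and ERK in turn induces inhibitors such as DUSP6 and SPRY2 that restrain the cascade. Activating mutations of BRAF or NRAS drive this pathway in most cutaneous melanomas, and CELF1 (also known as CUGBP1) is an RNA-binding protein that recognises GU-rich elements (GREs) in 3′ UTRs.

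Cell lysates were immunoprecipitated with an antibody to CUGBP1, and the recovered RNA (IP) and the RNA of the lysate (input) were sequenced. SK-Mel-103 is an established human melanoma line with mutated NRAS, and UACC-62 is an established human melanoma line with mutated BRAF. Both lines were grown in the same medium, with no drug named in the labels. SK-Mel-103 had 1 IP sample and no replicates, and UACC-62 had 2 IP samples, for which the labels do not say whether cultures were separate. The lines were not tested against each other. Unless stated otherwise, the 3 values of a list stand for SK-Mel-103 replicate 1, then replicates 1 and 3 of UACC-62. Each UACC-62 mean is given with the SD of its 2 replicates, and counts of reads carry counting error only in their 95% intervals.

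The listed bins held 10958459 to 14436573 IP reads and 8453517 to 10161917 input reads per sample. A bin was listed only if it passed the peak caller, and every listed bin had at least 4 IP reads, whereas its input reads could be 0. Bins without an input read made up 9.69%, 15.9% and 29.2% of those listed. Of the 7 melanocyte lineage markers, 3 had listed bins in SK-Mel-103 and 5 in each UACC-62 replicate, with 900, 11023 and 8240 input reads. TYR and DCT were listed in UACC-62 but not in SK-Mel-103, PMEL and TYRP1 in no sample, and the keratinocyte genes KRT5 and KRT14 were likewise not listed. The leukocyte gene PTPRC was not listed in SK-Mel-103. In UACC-62 replicates 1 and 3 it had 4 and 2 listed bins, with 25 and 8 IP reads and at most 3 input reads.

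A peak was a bin with more than 30 IP reads and a p-value under 0.05, and a common peak was such a bin in all 3 samples. The members held 4 common 3′ UTR peaks, 1 in NRAS and 3 in DUSP6. These sequences are shown because they carry all of the common peaks, together with the bins of BRAF and SPRY2 whose lowest IP count over the 3 samples was highest (of 2 BRAF bins equal at 12 reads, the one with more IP reads in all). They are read 5′ to 3′ on the transcript strand of GRCh37, all from the minus strand, and capitals mark TGT, the DNA spelling of the UGU core of GREs.
NRAS, chr1:115249921-115249940: tctatttgagagcagatgcc
DUSP6, chr12:89742081-89742100: attacctcTGTataaaattc
DUSP6, chr12:89741981-89742000: TGTGTGTgagcatgggtacc
DUSP6, chr12:89741881-89741900: ctggaatttattataagaat
BRAF, chr7:140419701-140419720: gactcacacacacattcctc
SPRY2, chr13:80910541-80910560: ttctccagagagaaTGTgct
Over all 203 3′ UTR bins of the members listed in all 3 samples, 84 (41.4%) held TGT on the transcript strand, beside 67068 of 180282 (37.2%) for all genes. The presence of these letters is a description of the bins.

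A common 3′ UTR peak was found in 2 of the 7 genes (NRAS and DUSP6), where 8.33% of the 19704 protein-coding genes with a 3′ UTR had at least 1. Among the 8960 genes (45.5%) with 3′ UTR bins in each of the 3 samples, which include all 7 members, the share was 18.3%. A common peak in the coding region (CDS) was found in 0 of the 7, where 2.79% of all genes had at least 1. All 7 members had listed CDS bins in each sample (background 41.2%). In single samples, 3′ UTR peaks were present in 3, 3 and 4 members, beside 14.4%, 12.0% and 16.2% of genes. The members had 8, 23 and 82 such bins, most of them in NRAS and DUSP6.

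Log2 IP over input was calculated from the reads in the listed bins of a region, each divided by the total of its column, with a pseudocount of 1 read. The median 3′ UTR value of the 7 genes was -0.08, -0.72 and -0.55. The medians of all genes with listed 3′ UTR bins were 0.09, -0.26 and 0.04. BRAF was the only member above 0 in all 3 samples (1 of 7, background 33.2%), whereas NRAS, HRAS, MAP2K1 and MAP2K2 were below 0 in all 3 (4 of 7, background 42.0%). Without division by the column totals every value shifts up by 0.37, 0.16 and 0.70, which turns MAP2K1 positive in SK-Mel-103 and UACC-62 replicate 3, leaves NRAS, HRAS and MAP2K2 below 0 and leaves BRAF above 0. In the CDS, no member was above 0 in all 3 samples (background 17.2%) and 5 were below 0 (background 53.6%), the exceptions being BRAF and SPRY2. SK-Mel-103 exceeded both UACC-62 replicates in the CDS of NRAS, BRAF, MAP2K2, DUSP6 and SPRY2 (5 of 7, background 52.8%). After each sample was centred on the median of all genes the number was 4 of 7 (background 43.2%), because the BRAF CDS fell between the UACC-62 replicates (0.61 against 0.86 and 0.12). The MAP2K1 CDS then lay below both (-0.47 against -0.13 and 0.18). Without division by the column totals, it was the DUSP6 CDS that fell between them (-0.37 against -1.60 and -0.24).

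**Figure D1:**
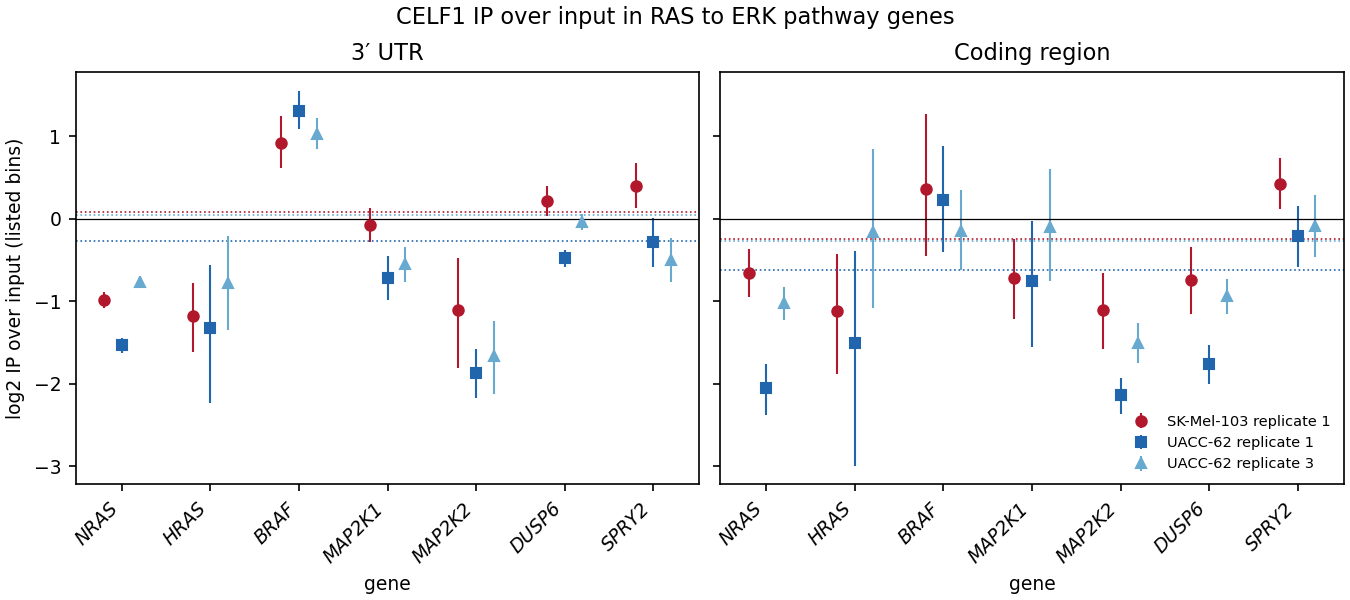
Log2 IP over input (vertical axis) of the 7 genes in listed bins of the 3′ UTR (left) and of the coding region (right), with a point per sample, bars for the 95% counting interval and dotted lines for the median of all genes in that sample. The 3 BRAF points in the 3′ UTR sit between 0.92 and 1.31, above those of every other member, and MAP2K2 and HRAS lie at -0.78 or lower in every sample.

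NRAS (ENSG00000213281, chromosome 1, 115247090 to 115259392, minus strand) encodes a RAS GTPase and had the most 3′ UTR reads of the 7 genes. Its 3′ UTR of 3628 nt held 1551, 1411 and 3886 IP reads against 2367, 3667 and 4065 input reads. The resulting log2 IP over input was -0.98, -1.53 and -0.76 (UACC-62 -1.15 ± 0.55, SD, n = 2). The SK-Mel-103 value lay between those of the UACC-62 replicates, so that the lines overlapped. All 3 samples thus had less NRAS 3′ UTR signal in the IP than in the input, at ratios of 0.506, 0.345 and 0.589.

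NRAS bins were spread over the whole 3′ UTR. Listed in any sample were 166 of its 3′ UTR bins, from 31 nt to its end. Over 5 equal parts of the 3′ UTR, log2 IP over input of SK-Mel-103 ran from -1.05 in the first to -0.86 in the last. NRAS had 3, 3 and 48 peaks above 30 reads. The bin richest in IP reads was the common peak, 788 nt from the start of the 3′ UTR, in SK-Mel-103 and UACC-62 replicate 1, but lay at 3608 nt with 99 reads in UACC-62 replicate 3. The common peak held 42, 44 and 62 IP reads against 59, 74 and 70 input reads, and thus more input than IP reads in every sample before scaling to the column totals.

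The NRAS CDS was likewise below 0 in each sample, with log2 IP over input of -0.66, -2.05 and -1.02. The 3′ UTR exceeded the CDS in both UACC-62 replicates, by 0.52 and 0.26, whereas the difference was -0.33 in SK-Mel-103. CDS peaks above 30 reads were seen in UACC-62 replicate 3, which had 3, and in neither of the other samples.

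HRAS (ENSG00000174775, chromosome 11, 532242 to 537321, minus strand), the second RAS GTPase, was thinly covered. Its annotated 3′ UTR of 536 nt held 76, 19 and 52 IP reads against 134, 44 and 55 input reads. The log2 ratios were -1.18, -1.33 and -0.78 (UACC-62 -1.05 ± 0.39, SD, n = 2), and the lines overlapped, although SK-Mel-103 lay below both UACC-62 replicates after centring on the median of all genes (-1.27 against -1.06 and -0.82). Only 1 of its bins was listed in all 3 samples, and no bin exceeded 24 IP reads. In the CDS, values of -1.12, -1.51 and -0.17 rested on 27, 8 and 25 IP reads.

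BRAF (ENSG00000157764, chromosome 7, 140419127 to 140624729, minus strand) encodes the RAF kinase most often mutated in melanoma. Its 3′ UTR held 293, 585 and 1014 IP reads against 119, 211 and 306 input reads. This gave log2 IP over input of 0.92, 1.31 and 1.03 (UACC-62 1.17 ± 0.20, SD, n = 2), or IP over input ratios of 1.89, 2.48 and 2.04. SK-Mel-103 lay below both UACC-62 replicates, as it did for 23.3% of genes. No other 3′ UTR of the members was in this order at this scaling, whereas BRAF and HRAS both were after centring on the median of all genes (background 33.6%). Its values stood at percentiles 76.4, 84.8 and 72.8 of all genes with listed 3′ UTR bins. Of the BRAF 3′ UTR bins, 5, 8 and 33 had no input read. With only bins of at least 1 input read, BRAF fell to 0.713, 1.129 and 0.725.

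The BRAF reads came almost wholly from the distal of its annotated last exons (140419127 to 140426296, 7170 nt). This exon held 42 of 43, 68 of 69 and 133 of 136 of the 3′ UTR bins of BRAF. The last exon of the canonical transcript (140430465 to 140434399, 3935 nt) held 1, 1 and 3 bins with 4, 5 and 15 IP reads. A further annotated last exon of 625 nt held 0 bins. Of 5 equal parts of the distal exon, the last contributed 54.0%, 70.7% and 44.3% of the IP reads, with log2 IP over input of 1.19, 1.51 and 1.64. The highest bins had 15, 37 and 38 IP reads, at 6367, 6067 and 6447 nt from the start of the exon, and BRAF had no common peak. On the opposite strand of the BRAF exons, 0 bins were listed in each sample.

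**Figure D2:**
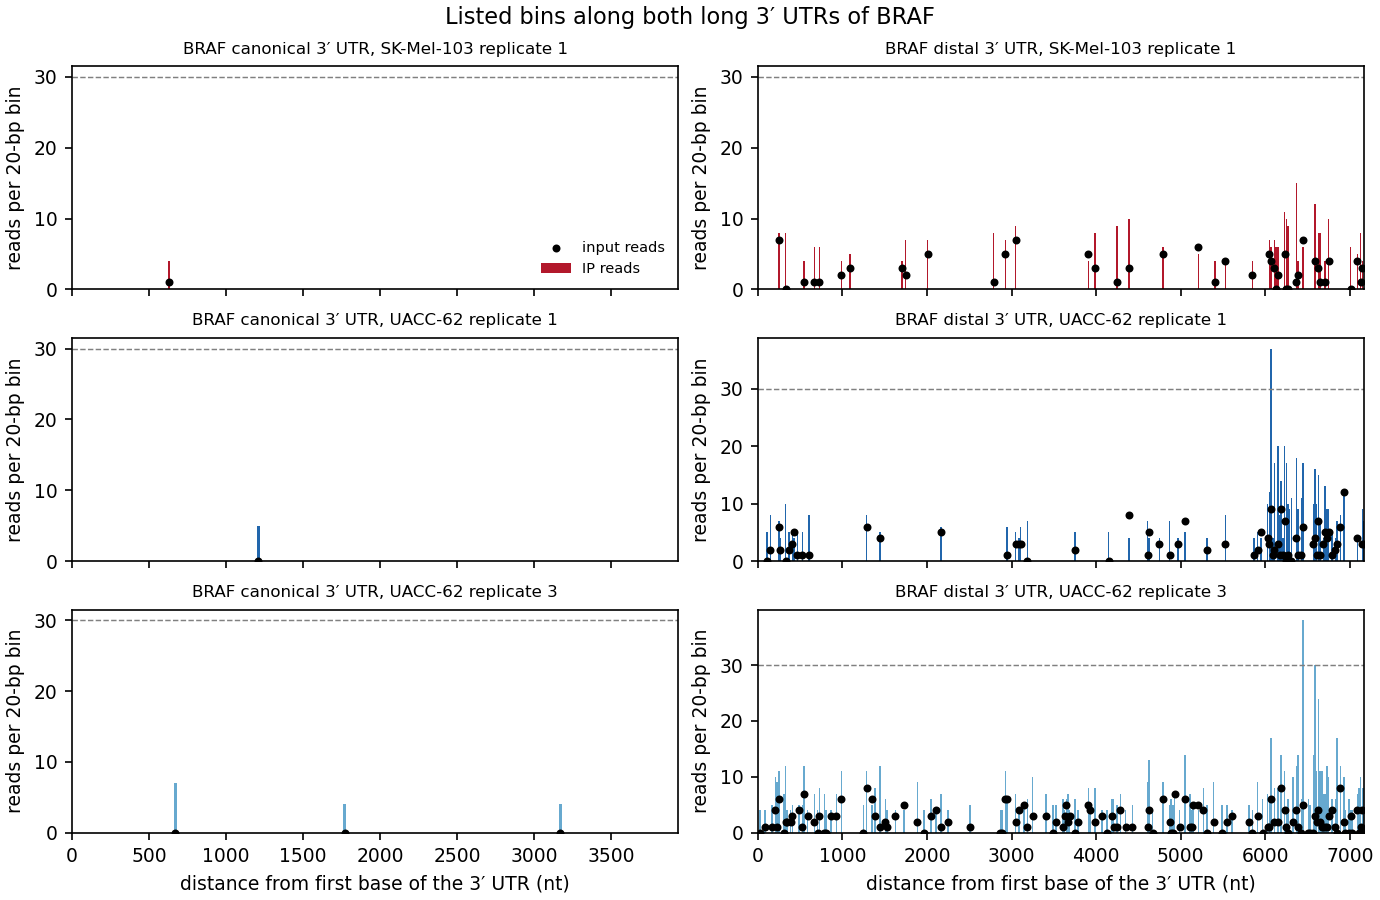
IP reads (bars) and input reads (dots) per listed 20-bp bin of BRAF against the distance in nt from the start of the canonical 3′ UTR (left) and of the distal last exon (right), 1 row per sample, with a dashed line at 30 reads. The canonical 3′ UTR held 1, 1 and 3 bins, and the tallest bars of the distal exon lay between 6067 and 6447 nt.

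Across all genes, 3′ UTRs thinly covered by listed bins had the highest log2 IP over input. Genes with under 10% of the 3′ UTR covered had medians of 0.50, 0.19 and 0.70, those with 10 to 50% had medians of -0.19, -0.69 and -0.39, and those with at least 50% had medians of -0.24, -0.38 and -0.18. Listed bins covered 7.33%, 11.8% and 23.2% of the BRAF 3′ UTR, 68.9%, 68.9% and 86.0% of that of NRAS, and 43.5%, 50.4% and 55.4% of that of DUSP6. The BRAF share was taken over all 11730 nt of its annotated 3′ UTR. That length includes the canonical last exon, which held 1, 1 and 3 bins. The share of the distal last exon alone was not set against these classes. The part of coverage in the difference between BRAF and the other members was not tested.

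The BRAF CDS had fewer reads, at 34, 50 and 91 IP reads in the 3 samples. Its log2 IP over input was 0.36, 0.23 and -0.15, all with counting intervals that held 0. The 3′ UTR exceeded the CDS by 0.56, 1.08 and 1.18, in all 3 samples.

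MAP2K1 (ENSG00000169032, chromosome 15, 66679175 to 66783994, plus strand) encodes the kinase MEK1. Its 3′ UTR held 422, 204 and 395 IP reads against 343, 301 and 357 input reads, with log2 IP over input of -0.08, -0.72 and -0.55 (UACC-62 -0.63 ± 0.12, SD, n = 2). SK-Mel-103 was above both UACC-62 replicates and held the only MAP2K1 peaks above 30 reads, of which there were 2, the higher with 38 reads. The CDS values of -0.72, -0.76 and -0.10 overlapped between the lines, and the 3′ UTR exceeded the CDS in SK-Mel-103 and UACC-62 replicate 1, by 0.65 and 0.04.

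MAP2K2 (ENSG00000126934, chromosome 19, 4090319 to 4124119, minus strand) encodes MEK2 and had the lowest 3′ UTR values of the 7 genes in both UACC-62 replicates. Its 3′ UTR of 280 nt held 32, 126 and 66 IP reads against 54, 414 and 130 input reads. The resulting values were -1.11, -1.87 and -1.67 (UACC-62 -1.77 ± 0.14, SD, n = 2), at percentiles 10.8, 10.1 and 9.49 of all genes. The CDS was similar, with -1.10, -2.14 and -1.50. MAP2K2 was the only member with most of its exonic IP reads outside the 3′ UTR, which took 30.8%, 35.3% and 22.8% of them.

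DUSP6 (ENSG00000139318, chromosome 12, 89741012 to 89746278, minus strand) encodes a phosphatase that inactivates ERK and is itself induced by ERK. Its 3′ UTR of 2022 nt held 647, 1382 and 2205 IP reads against 430, 1725 and 1398 input reads. These corresponded to log2 IP over input of 0.21, -0.48 and -0.04 (UACC-62 -0.26 ± 0.31, SD, n = 2). SK-Mel-103 was above both UACC-62 replicates, as for 53.8% of genes, but fell between them (0.59 against -0.32 and 0.66) without division by the column totals. Scaled in the manner of RPKM, the input reads in the listed 3′ UTR bins came to 25.2, 84.0 and 77.7. The length used was all 2022 nt of the 3′ UTR, including parts without listed bins. The total used was that of input reads in listed bins, not of all mapped reads. The values are therefore not standard RPKM. In such bulk lysates RNA per cell and the share of expressing cells cannot be told apart.

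The DUSP6 3′ UTR lay above its own CDS. The CDS had log2 IP over input of -0.74, -1.76 and -0.94, below the 3′ UTR by 0.96, 1.28 and 0.90. The 3′ UTR took 85.2%, 85.3% and 84.7% of the exonic IP reads of DUSP6 against 74.8%, 70.8% and 74.8% of its input reads, with Wilson 95% intervals that did not overlap in any sample. These intervals hold counting error only. They were also apart, with the IP share higher, for BRAF in 2 samples and for NRAS in 1. The share of all genes with such intervals apart was not computed. BRAF and DUSP6 were the 2 of 7 members whose 3′ UTR exceeded the CDS in all 3 samples, as did 44.4% of the 7310 genes with both regions listed. Over all 7 genes and 3 samples, the 3′ UTR was higher in 12 of 21 pairs.

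Listed DUSP6 bins were confined to the proximal part of the 3′ UTR. Listed bins ran from 4 to 1184 nt in each sample, and the last 828 nt held none. The input over those last 828 nt is unknown, so that a lack of IP signal and a lack of RNA there cannot be told apart. Over the first 3 of 5 equal parts of the 3′ UTR, log2 IP over input increased from -0.11 through 0.08 to 0.46 in SK-Mel-103. It increased likewise from -1.14 through -0.39 to -0.25 in the first UACC-62 replicate and from -0.45 through -0.03 to 0.13 in the other. Peaks above 30 reads numbered 3, 19 and 32. The 3 common peaks lay at 944, 1044 and 1144 nt from the start of the 3′ UTR, towards the end of the covered stretch.

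The common DUSP6 peak at 1044 nt held 49, 49 and 100 IP reads against 26, 84 and 40 input reads. It was the highest DUSP6 bin in SK-Mel-103, whereas the highest in both UACC-62 replicates lay at 1124 nt with 72 and 110 reads. The peak at 944 nt held 31, 60 and 52 IP reads against 7, 45 and 48 input reads, and that at 1144 nt held 33, 37 and 78 against 15, 76 and 69. At 944 nt the IP reads, before scaling, exceeded the input reads in all 3 samples, while at the other peaks UACC-62 replicate 1 had more input reads. Division by the column totals lowers log2 IP over input by 0.70 in UACC-62 replicate 3. The peaks at 944 and 1144 nt are then below 0 in that sample.

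**Figure D3:**
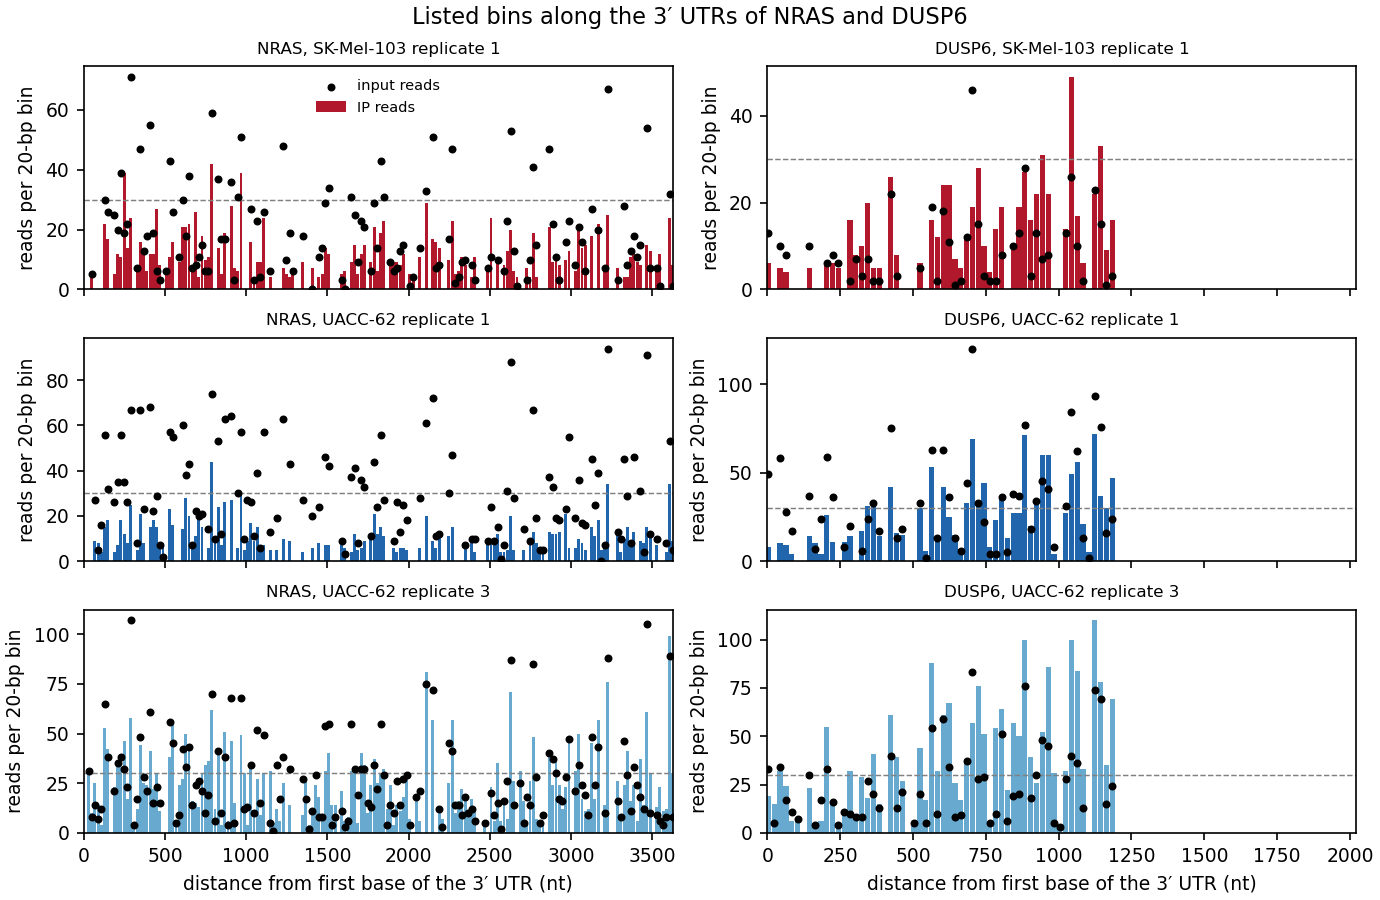
IP reads (bars) and input reads (dots) per listed 20-bp bin against the distance in nt from the start of the 3′ UTR for NRAS (left) and DUSP6 (right), 1 row per sample, with a dashed line at 30 reads. NRAS bins cover the whole 3′ UTR, whereas DUSP6 bins end at 1184 of 2022 nt in each sample.

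GREs were sought on the transcript strand as stretches of 11 nt within 2 mismatches of repeated UG or repeated UGUU, with overlapping stretches merged. The DUSP6 3′ UTR held 7 (3.46 per kb), NRAS 4, BRAF 11 over its long 3′ UTR, MAP2K1 and SPRY2 1 each, and HRAS and MAP2K2 0. Of all genes with a 3′ UTR, 55.3% had at least 1, and the median was 0.40 per kb. DUSP6 was the only member with a stretch free of mismatches, as in 7.65% of genes. The merged GRE that holds this stretch, at 1028 to 1044 nt and not free of mismatches over its whole length, overlapped the common peak that opens with TGTGTGT above. Among the DUSP6 bins listed in all 3 samples, 5 of 42 (11.9%) overlapped a GRE, beside 9.90% of all bins of its 3′ UTR. The 9.90% takes in the last 828 nt, without listed bins but with GREs at 1194 to 1208 and 1837 to 1847 nt. The like share was also higher for MAP2K1 (4.76% beside 3.28%) and SPRY2 (8.33% beside 5.13%). It was lower for NRAS (0.97% beside 2.75%) and BRAF (0% beside 2.90%). These differences were not tested.

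SPRY2 (ENSG00000136158, chromosome 13, 80910111 to 80915261, minus strand) encodes a Sprouty protein that dampens signalling from receptors to RAS. Its 3′ UTR of 785 nt held 299, 179 and 257 IP reads against 175, 196 and 224 input reads. This resulted in log2 IP over input of 0.39, -0.29 and -0.50 (UACC-62 -0.39 ± 0.15, SD, n = 2). SK-Mel-103 was above both UACC-62 replicates and had the opposite sign, as for 9.07% of genes, although without division by the column totals UACC-62 replicate 3 was also above 0 (0.20). In SK-Mel-103 part 4 of 5 of the 3′ UTR held 115 IP and 20 input reads (log2 2.09), whereas it stood at -0.24 and -0.29 in UACC-62.

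SPRY2 was the only member whose 3′ UTR did not exceed its CDS in any sample. CDS values were 0.42, -0.21 and -0.09, again with SK-Mel-103 above both UACC-62 replicates, and the 3′ UTR took 53.3%, 57.7% and 58.7% of the exonic IP reads. The bin of SPRY2 printed above held 23, 17 and 31 IP reads against 14, 24 and 19 input reads. SPRY2 had 1 peak above 30 reads, in UACC-62 replicate 3. Of the 7 genes, MAP2K1, MAP2K2, DUSP6 and SPRY2 thus had SK-Mel-103 above both UACC-62 replicates in the 3′ UTR (4 of 7, background 53.8%), and likewise after centring on the median of all genes (background 43.0%).

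Genes with 3′ UTR values close to those of DUSP6 were sought among 2785 genes with at least 200 IP reads in the listed 3′ UTR bins of each sample. The smallest Euclidean distances over the 3 values were those of BZW1 (0.05), PTGFRN (0.06) and TOMM34 (0.07).

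A further 35 genes of the pathway were examined, of which 29 had 3′ UTR bins in all 3 samples and 10 had a common 3′ UTR peak (background 8.33% of all genes, 18.3% of those listed in all 3). A common CDS peak was found in 2, SPRED1 and CCND1 (background 2.79%). Their 3′ UTR values were above 0 in all 3 samples in 12 of the 29 (background 33.2%) and below 0 in 9 (background 42.0%), with medians of 0.31 for SK-Mel-103 and 0.06 for the UACC-62 mean. Their medians were thus above those of the 7 members in both lines.

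The counts by role that follow are of the further genes and leave out the 7 members. By role, 4 of 5 listed feedback inhibitors were above 0 in all 3 samples and 0 below. The exception among these was DUSP4, a phosphatase acting on ERK, with 0.06, -1.40 and -1.01. The members DUSP6 and SPRY2, which also restrain the cascade, were likewise not above 0 in all 3 samples. Of 7 listed transcriptional targets of ERK, 1 was above 0 and 4 were below, and of 5 adaptor and exchange proteins 2 were above and 3 below. Above 0 were 2 of 3 RAF proteins and regulators, 2 of 3 RAS GTPase-activating proteins, 1 of 4 kinases downstream of ERK and 0 of 2 RAS GTPases, while 1, 0, 0 and 1 of them were below. These groups are small, and none was tested. SPRED1, a Sprouty-related inhibitor of RAS activation, had 68 common 3′ UTR peaks and 8 common CDS peaks, and log2 IP over input of 2.29, 2.83 and 2.69 in its 3′ UTR. CCND1, which encodes the cell cycle regulator cyclin D1 and is induced downstream of ERK, had 128 common 3′ UTR peaks and values of 2.30, 2.96 and 2.99. Both were above BRAF, the highest of the 7 members, in each sample.

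Some other genes with common peaks had less signal in the IP than in the input, as did NRAS with its 1 common peak. PEBP1, which encodes an inhibitor of signalling from RAF to MEK, had 20 common peaks and values of -0.90, -1.36 and -0.92. PTPN11, which encodes the phosphatase SHP2, had 6 and values of -1.37, -1.84 and -1.07. A common peak could therefore occur with a value below 0.

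PHLDA1, a transcriptional target of ERK, had 7 common peaks and values of -0.35, -1.03 and -0.28. RPS6KA3, which encodes the ERK-activated kinase RSK2, had 8 and values of 0.14, -0.25 and -0.38. RASA2, which encodes a RAS GTPase-activating protein, had 3 and values of 0.79, 2.06 and 1.26, above 0 in all 3 samples. SHOC2, DUSP5 and ETV5 had 1 common peak each.

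**Figure D4:**
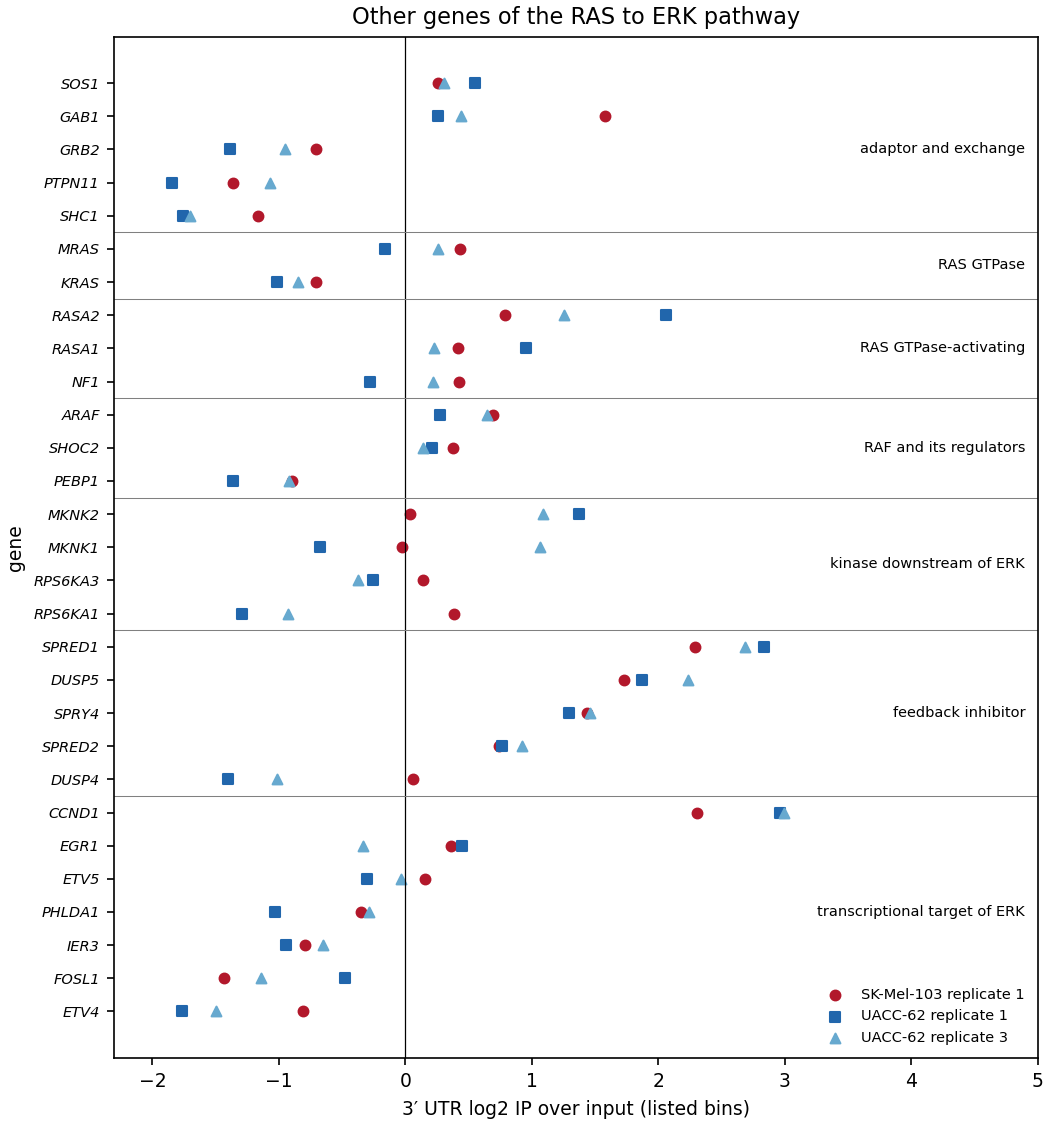
3′ UTR log2 IP over input (horizontal axis) of the 29 further pathway genes with bins listed in all 3 samples, grouped by role, with a point per sample. SPRED1 and CCND1 lie above 2 in each sample, 4 of the 5 feedback inhibitors lie above 0 in all 3, and 4 of the 7 transcriptional targets of ERK lie below 0 in all 3.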

How the data were processed

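Sample titles gave the groups and replicates. The authors aligned reads to GRCh37 with TopHat, set to a first-strand library, whereas the preparation named in the labels (TruSeq RNA) does not mark strand. The notes of the submitters name TopHat2 2.0.4, Bowtie 0.12.7 and SAMtools 0.1.16, whereas the methods of the study give other versions of the aligner. Bins of 20 bp were called with Piranha, replicate by replicate. The deposited counts are whole numbers of IP reads in bins that passed. Per the methods, significance was set at 0.05 on a corrected p-value, and the p-value deposited by the authors for each bin was at most 0.045 to 0.050. The ratio deposited by the authors is the input covariate, from which whole input reads were recovered to within 0.019 read of a whole number, 0.01 standing for no input read.

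The transcript strand was the reverse of the listed strand. On the listed strand itself, the exons of the members held 1 bin in all, in MAP2K1. GENCODE version 44 mapped to GRCh37 gave 3′ UTRs before CDS where transcripts differed. Bins shared with another gene on the strand and bins of the pseudogenes BRAFP1 and MAP2K1P1 numbered 0. Of the pathway list, 2 genes are not reported here. Members and gene lists were chosen with earlier results of these data known. Text genes are the 7 members, pathway genes with a common 3′ UTR peak (values for those with more than 1) and the 3 genes nearest to DUSP6. DUSP4 and the coverage classes were chosen after their values were seen. With SK-Mel-103 at 1 sample no test was run. Scripts were tested on simulated data. Tools were pysam 0.24.0, scipy 1.17.1, matplotlib 3.10.9, pandas 2.3.3 and numpy 2.4.6 under Python 3.11.15.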

Additional observations from a re-analysis of the deposited data

Results flagged for a closer look

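In 3 instances the log2 IP over input of SK-Mel-103 had the opposite sign to both UACC-62 replicates. They were the DUSP6 3′ UTR (0.21 against -0.48 and -0.04), the SPRY2 3′ UTR (0.39 against -0.29 and -0.50) and the SPRY2 CDS (0.42 against -0.21 and -0.09). The difference between the lines was not tested, since SK-Mel-103 had 1 sample. A positive 3′ UTR value in SK-Mel-103 with negative values in both UACC-62 replicates was found in 9.07% of the 8960 genes with 3′ UTR bins in all 3 samples. The like share for the CDS was not computed. The counting intervals held 0 for the DUSP6 3′ UTR in UACC-62 replicate 3, the SPRY2 3′ UTR in replicate 1 and the SPRY2 CDS in both. Without division by the column totals, UACC-62 replicate 3 was above 0 in each instance (0.66, 0.20 and 0.60), as was SK-Mel-103. After centring each sample on the median of all genes, the signs stayed opposite for the 3′ UTRs of DUSP6 (0.13 against -0.21 and -0.08) and SPRY2 (0.31 against -0.02 and -0.54), whereas the SPRY2 CDS was above 0 in all 3 samples (0.67, 0.41 and 0.18).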

How the results depend on the processing

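The counts of 2 members with a common 3′ UTR peak, 0 with a common CDS peak and 4 common 3′ UTR peaks became 7, 6 and 203 without the read filter. Above 100 IP reads, and likewise when transcripts were read on the strand as listed, they were 0, 0 and 0. Leaving out a UACC-62 replicate left these counts at 2 and 0, with 4 to 6 common 3′ UTR peaks. Without division by column totals, the median 3′ UTR log2 IP over input of the members was 0.30 in SK-Mel-103, of opposite sign to the -0.08 given above, and -0.21 in UACC-62 in place of -0.63. With bins of more than 30 IP reads, which left 3 genes per line, it was 0.016 and -0.16. Without UACC-62 replicate 1 or 3 the UACC-62 median ran from -0.72 to -0.55. Single genes were recomputed under alternatives chosen after seeing the data. Without division by column totals, the sign turned for MAP2K1 in SK-Mel-103 (0.30) and for DUSP6 (0.17) and SPRY2 (0.034) in UACC-62. The cause was not tested. The strand as listed gave no median, since it left at most 1 exon bin per member. No paired analysis was possible because the lines share only replicate number 1 and no test was run. Input outside the listed bins is unknown, which limits every value of IP over input to bins that passed the caller.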

Other observations

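Bins in introns of BRAF were listed in each sample, namely 23, 26 and 35 in the order used above, with 112, 134 and 163 IP reads against 26, 11 and 4 input reads. No intronic BRAF bin exceeded 8 IP reads, and 3, 17 and 31 of these bins had no input read. MAP2K1 had 16 intronic bins in SK-Mel-103 (83 IP reads) and 2 in each UACC-62 replicate. In the 5′ UTR, listed bins were found only in DUSP6, with 20, 34 and 64 IP reads, and SPRY2, with 15, 9 and 27.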
